A study of Mus musculus with 8 samples.

Results

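The 8 genes described here take part in fatty acid oxidation and the response of the liver to fasting: Cpt1a, Cpt2, Acadm, Acadl, Ehhadh, Angptl4, Fgf21 and Pdk4. They were picked by name, with no threshold on their values, out of the 21887 protein-coding genes of the RefSeq table used. Each was described by the ends of paired-end tags that lay within its annotated span or 2.5 kb to either side. The tags come from chromatin interaction analysis by paired-end tag sequencing (ChIA-PET) of mouse liver with an antibody to RNA polymerase II (Pol II). In this assay, DNA ends held in one crosslinked complex are ligated to each other, and a paired-end tag (PET) records the positions of both. The end density over a gene is taken as a reading of how much of its DNA came down with Pol II. The distance between the ends shows which stretches were joined. None of the 8 libraries was an input control, so density from other sources was not subtracted.

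The livers came from wild-type C57BL/6 mice aged 3 to 6 months that ate freely under 12 h of light and 12 h of darkness. No fasted group was among them, so the levels are those of mice with free access to food, with both collection times pooled. Whether an animal had eaten shortly before collection cannot be told from these data. Livers were collected at ZT06, mid-day, or ZT18, mid-night, and chromatin of 3 to 7 livers was combined for each precipitation with the monoclonal antibody 8WG16, which binds the tail of the largest Pol II subunit. Experiment 1 (4 libraries, JM08) and experiment 3 (2 libraries, JM12) used dual crosslinking with 1.5 mM EGS, a linker of proteins, and 1% formaldehyde. Experiment 2 (2 libraries, JM11) used 1% formaldehyde alone. Each experiment held equal numbers of ZT06 and ZT18 libraries, but the table names the experiment of a PET and neither its library nor its time point. Day was therefore not compared with night, and each experiment is 1 pool with no replicate. With 2 dual pools against 1 single pool the smallest two-sided exact permutation p is 0.333, so no test was run. A ratio between experiments compares these pools, and the crosslinking cannot be told apart from everything else that differed between the experiments.

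During fasting the liver takes up fatty acids released from fat tissue and oxidises them. Long-chain acyl groups enter mitochondria as carnitine esters, and acyl-CoA dehydrogenases then open each round of beta-oxidation, while peroxisomes shorten very long chains and dicarboxylic acids. Many of these genes are targets of the nuclear receptor PPARα, which is active in fasting and pairs with RXR on DNA, and the same receptor raises secreted factors such as Angptl4 and Fgf21.

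The table held 2753554 PETs, 474478 in experiment 1, 1438866 in experiment 2 and 840210 in experiment 3. The mean of the nuclear genome was 0.357, 1.08 and 0.630 ends per kb in that order, and relative density below is the ends per kb of a window divided by this mean. Intervals are 95% exact Poisson or Clopper-Pearson binomial intervals and cover counting error only. A PET with both ends in a window gives it 2 ends, which these intervals treat as independent. Liver is a mixture of cells, and fewer cells of a type and less Pol II per cell cannot be told apart. The 5 hepatocyte markers had median relative densities of 74.4, 9.06 and 15.2, with 5, 4 and 4 of 5 at or above 2. Of all protein-coding genes, 27.0%, 6.03% and 24.1% were at or above 2. Marker lists of Kupffer, endothelial, stellate and bile duct cells and lymphocytes, 5 genes each, had medians between 0.785 and 1.79, and at most 1 gene of a list reached 2 in any experiment. Their part in the results was not tested.

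The regions just upstream of the starts were searched for short sequence motifs. RefSeq promoter sequences (GRCm38.p6) were matched for 7 of the 8 genes, all but Angptl4. The 250 bases before the start are printed for Cpt1a, Cpt2 and Acadm, each among the 2 densest starts of at least 1 experiment, and for Fgf21, which had the lowest whole-window density by its mean over the experiments. Each runs 5′ to 3′ on the strand of the gene. Capitals mark every match on either strand to the motifs searched: the E-box CACGTG, the D-box TTATGTAA, the nuclear receptor half-site AGGTCA, the TATA box TATAAA, the CCAAT box CCAAT and the GC box GGGCGG. The Cpt1a stretch is chr19:3323051-3323300 on the plus strand, Cpt2 at chr4:107923590-107923839, Acadm at chr3:153944644-153944893 and Fgf21 at chr7:45615491-45615740, the last 3 on the minus strand. The listed start of Cpt1a lies 975 bp inside its RefSeq span, so that its printed stretch is part of the annotated gene.
Cpt1a: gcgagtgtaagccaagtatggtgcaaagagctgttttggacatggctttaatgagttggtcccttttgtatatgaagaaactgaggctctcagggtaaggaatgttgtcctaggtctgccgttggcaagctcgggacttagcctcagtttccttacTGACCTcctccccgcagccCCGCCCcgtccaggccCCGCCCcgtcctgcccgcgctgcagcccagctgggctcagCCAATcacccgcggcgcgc
Cpt2: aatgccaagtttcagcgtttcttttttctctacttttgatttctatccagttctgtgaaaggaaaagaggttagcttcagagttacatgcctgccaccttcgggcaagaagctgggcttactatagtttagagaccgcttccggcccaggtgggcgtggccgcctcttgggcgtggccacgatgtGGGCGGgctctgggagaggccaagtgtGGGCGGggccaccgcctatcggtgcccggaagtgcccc
Acadm: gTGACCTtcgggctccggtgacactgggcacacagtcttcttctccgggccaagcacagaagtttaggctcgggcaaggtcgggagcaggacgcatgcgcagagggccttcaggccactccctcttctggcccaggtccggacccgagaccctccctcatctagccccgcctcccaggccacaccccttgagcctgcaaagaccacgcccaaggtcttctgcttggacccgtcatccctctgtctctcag
Fgf21: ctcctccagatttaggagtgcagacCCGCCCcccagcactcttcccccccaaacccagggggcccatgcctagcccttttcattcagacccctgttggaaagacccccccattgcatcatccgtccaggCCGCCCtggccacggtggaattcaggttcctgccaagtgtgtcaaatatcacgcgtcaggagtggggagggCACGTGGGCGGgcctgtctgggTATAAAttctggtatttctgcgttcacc

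Cpt1a held 1 half-site, read on the opposite strand, 94 bases before the start, together with 2 GC boxes and a CCAAT box 19 bases before it. Acadm held 1 half-site at position -249 from its start and no other match. Cpt2 held only 2 GC boxes. Fgf21 had a TATA box 28 bases before the start, an E-box at 50 bases that shares 1 base with a GC box, and 2 further GC boxes. Among the genes not printed, Acadl held 4 GC boxes, Ehhadh 2 GC boxes and a CCAAT box, and Pdk4 a CCAAT box at position -131. Over all 32851 RefSeq promoters of the same length, 14.0% held the half-site, 12.4% the TATA box, 6.02% the E-box, 33.9% the CCAAT box and 32.7% the GC box. The D-box, found in 0.819% of all promoters, and the DR1 element on which PPARα and RXR bind (0.338%) had no match in the 7. A match is a string of letters and not a binding site, and its absence says only that the letters are not in this window. GC content was 56.8% to 68.0% in the 7 against a median of 52.4% over all promoters.

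The windows of the 8 genes held 874 PET ends, split 256, 319 and 299 over the experiments. Their median relative density was 2.54, 1.22 and 1.94, against 1.19, 1.17 and 1.39 over all protein-coding genes. In experiment 1, 5 of the 8 were at or above 2 times the nuclear mean, where 27.0% of all genes were. In experiment 2 it was 1 of 8, against 6.03% of all genes, and in experiment 3 it was 4 of 8, against 24.1%. Only Angptl4 reached 2 in all 3 experiments, as did 5.02% of all genes. Several members sat close to the fold of 2: in experiment 3 Ehhadh (2.01) and Cpt2 (2.07) lay just above it, and in experiment 1 Pdk4 (1.88) and Acadl (1.87) just below.

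Angptl4 had a mean relative density of 6.77 over the 3 experiments, rank 395 of all protein-coding genes. It was followed by Cpt2 (2.29), Cpt1a (2.20), Acadm (2.11), Ehhadh (1.74), Pdk4 (1.68), Acadl (1.62) and Fgf21 (1.03, rank 15530). In experiment 1 the interval of Angptl4 lay above those of all 7 other genes. In experiment 2 it lay above those of 5 and overlapped those of Cpt2 and Pdk4, and in experiment 3 it lay above those of Acadm and Acadl alone. Below Angptl4, the intervals of neighbours in this order overlapped in every experiment, so that the order from Cpt2 to Fgf21 is not resolved at this depth. Window lengths ran from 6601 bp (Fgf21) to 68410 bp (Cpt1a), with 11676 bp at Angptl4, and the ranking was not adjusted for length. In the upper 2226 bp of Angptl4 relative density was 34.0, 8.73 and 7.85. Within 1 kb of the Cpt1a start it was 30.8, 7.86 and 15.1, with intervals that overlapped those of Angptl4 in each experiment.

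**Figure D1:**
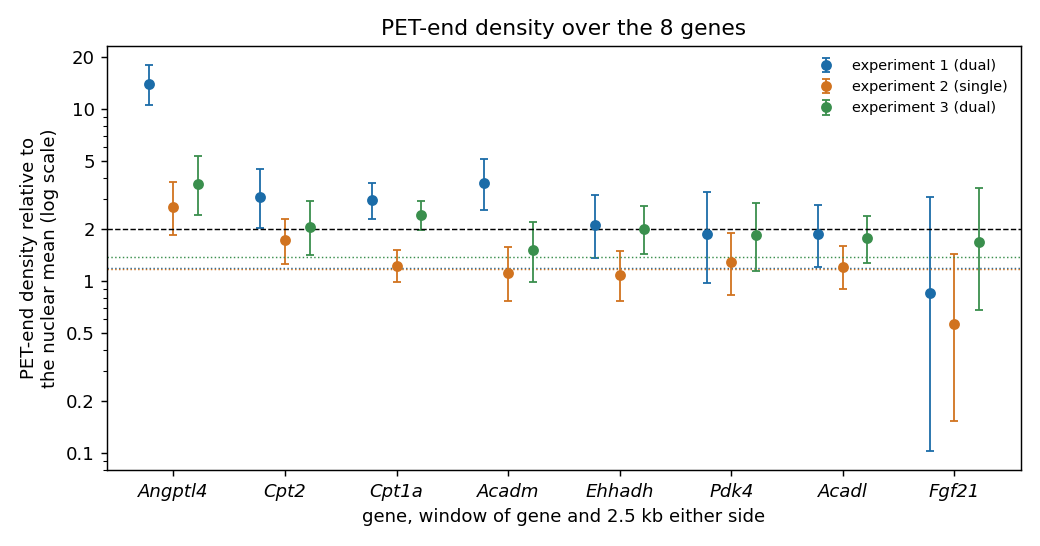
PET-end density over each gene and 2.5 kb to either side, relative to the nuclear mean of the experiment (log scale), for the 8 genes in order of their mean. Points are the 3 experiments, bars are 95% exact Poisson intervals, the dashed line is the fold of 2, and dotted lines are the medians of all protein-coding genes; Angptl4 stands at 13.9, 2.69 and 3.67, and the bars of Fgf21 span the widest range.

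Entry of fatty acids into mitochondria rests on Cpt1a and Cpt2. Cpt1a (chr19:3322326-3385735), the liver form of the carnitine palmitoyltransferase that commits long-chain acyl groups to import, held 72, 91 and 104 ends in experiments 1, 2 and 3. These gave relative densities of 2.95 (2.31 to 3.72), 1.23 (0.991 to 1.51) and 2.41 (1.97 to 2.92). Both dual-crosslinked pools lay above the single-crosslinked one, with intervals that did not overlap it. From PETs at most 8 kb apart alone the values were 5.82, 4.34 and 3.46, so that experiment 3 stood below experiment 2. Over all PETs, the ratio to experiment 2 was 2.40 (1.74 to 3.31) for experiment 1 and 1.96 (1.47 to 2.63) for experiment 3, while experiments 1 and 3 differed by a factor of 1.22 whose interval (0.893 to 1.67) includes 1. The median of these ratios over genes was 1.19 for experiment 1 and 1.26 for experiment 3, and Cpt1a stood at the 80.7th and 83.7th percentile.

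Cpt2 (chr4:107903982-107923589), the enzyme of the inner membrane that turns the carnitine esters back into acyl-CoA, held 27, 46 and 32 ends. Its relative densities were 3.08 (2.03 to 4.48), 1.73 (1.27 to 2.31) and 2.07 (1.41 to 2.92). All 3 intervals lay above 1 and overlapped one another. The ratio of experiment 1 to experiment 2 was 1.78 (1.06 to 2.92), and the other ratios had intervals that include 1. The interval of 1.78 also holds the ratio of the median gene, 1.19, and Cpt2 stood at the 69.9th percentile. The Cpt2 calls depended on the reference: against the mean of 6 windows of the same length 100 to 200 kb away, its ratios were 0.853, 1.42 and 0.857. One of those 6 windows alone held 94 ends in experiment 1, where their median was 8.

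The dehydrogenases of the mitochondrial matrix were Acadm and Acadl. Acadm (chr3:153922353-153944643), the medium-chain acyl-CoA dehydrogenase, held 36, 33 and 26 ends. Relative density was 3.70 (2.59 to 5.12), 1.12 (0.770 to 1.57) and 1.51 (0.988 to 2.22). Here the pool that stood apart was experiment 1, and the 2 dual pools did not match: experiment 1 was 2.45 (1.44 to 4.22) times experiment 3, at the 93.6th percentile of genes, and 3.31 (2.01 to 5.48) times experiment 2. The ratio of experiment 3 to experiment 2 was 1.35 (0.777 to 2.33).

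Acadl (chr1:66830839-66863309), the long-chain acyl-CoA dehydrogenase, held 25, 49 and 42 ends. Relative densities of 1.87 (1.21 to 2.76), 1.21 (0.895 to 1.60) and 1.78 (1.28 to 2.41) overlapped one another. All 3 ratios between experiments had intervals that include 1, the one of experiment 1 to experiment 2 being 1.55 (0.916 to 2.55).

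Ehhadh (chr16:21761285-21787834) encodes the bifunctional enzyme of peroxisomal beta-oxidation, which hydrates and then oxidises the acyl chain. It held 24, 37 and 40 ends, and relative densities were 2.13 (1.37 to 3.17), 1.09 (0.764 to 1.495) and 2.01 (1.44 to 2.74). As at Cpt1a, both dual pools were higher than the single one, by 1.97 (1.13 to 3.38) and 1.86 (1.16 to 2.98). The intervals of the levels themselves overlapped. The median gene had ratios of 1.19 and 1.26. Unlike at Cpt1a, both ratio intervals hold these medians, so that Ehhadh was not told apart from the median gene. The 2 dual pools differed by a factor of 1.06 (0.611 to 1.80). From PETs at most 8 kb apart alone Ehhadh stood at 0.789, 1.88 and 3.41, so that experiment 1 fell below experiment 2, with 1 such PET over the gene in experiment 1.

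Angptl4 (chr17:33774900-33781575) encodes a secreted inhibitor of lipoprotein lipase, the enzyme that releases fatty acids from circulating lipoproteins. Its short window held 58, 34 and 27 ends, where the nuclear mean would give 4.16, 12.6 and 7.35. Relative density was 13.9 (10.6 to 18.01), 2.69 (1.87 to 3.76) and 3.67 (2.42 to 5.34), at the 98.5th, 97.7th and 94.6th percentile of protein-coding genes. Experiment 1 was far above both others and the other two overlapped. It was 5.17 (3.33 to 8.15) times experiment 2 and 3.79 (2.36 to 6.23) times experiment 3, the latter ratio at the 98.5th percentile of genes. Experiment 3 was 1.36 (0.791 to 2.33) times experiment 2. With the local windows 100 to 200 kb away as the reference, Angptl4 stood at 7.73, 2.80 and 2.89.

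Fgf21 (chr7:45613890-45615490), the gene of a hormone that the liver secretes in fasting, had the fewest ends, 2, 4 and 7. Relative densities were 0.850 (0.103 to 3.07), 0.560 (0.153 to 1.44) and 1.68 (0.677 to 3.47), and all intervals include 1. At this depth neither an excess nor a lack of PET ends over Fgf21, relative to the nuclear mean, was detectable. It was also the only member whose window overlapped another protein-coding gene, Fut1, whose span ends 2116 bp away, and without the overlapped part the values were 0.902, 0.446 and 1.79. Against the local windows Fgf21 stood at 0.167, 0.387 and 0.532, ratios of few ends that carry no interval. In experiment 1 a single one of the 6 windows held 53 ends, where their median was 5.

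Pdk4 (chr6:5483351-5496278) encodes a kinase that switches off the pyruvate dehydrogenase complex and so spares glucose. It held 12, 25 and 21 ends, with relative densities of 1.88 (0.970 to 3.28), 1.29 (0.835 to 1.90) and 1.86 (1.15 to 2.84). The values overlapped, only that of experiment 3 had an interval above 1, and no ratio between experiments had an interval that leaves out 1. Its nearest protein-coding gene, Asb4, was 50329 bp away, the farthest neighbour of the 8 genes. Against the local windows Pdk4 stood at 2.25, 1.15 and 2.00, at or above 2 in both dual pools. These are ratios of few ends that carry no interval. The densest of the 6 windows held 15, 33 and 23 ends, more than Pdk4 in each experiment.

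Along the genes, the ends crowded at the starts. For the 7 genes with a listed start, 58 of 198 ends in experiment 1 lay within 1 kb of it, or 29.3% (23.1 to 36.2), on 6.55% of the window length. In experiment 2 it was 63 of 285, or 22.1% (17.4 to 27.4), and in experiment 3 62 of 272, or 22.8% (17.95 to 28.2). Over the 14087 protein-coding genes with 1 listed start, the same zone held 23.3%, 9.15% and 14.1% of ends on 4.75% of the length. Density at the starts of the 7 genes was 5.91, 4.05 and 4.21 times that in the rest of their windows, against 6.08, 2.02 and 3.28 times over all such genes.

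Divided into parts, the 7 genes together had a relative density of 11.6 (8.82 to 15.01), 4.16 (3.20 to 5.32) and 7.03 (5.39 to 9.01) at the starts. All genes had 7.97, 2.42 and 4.42 there. Singly, Fgf21 lay below these values in each experiment, Pdk4 in experiments 1 and 2, and Cpt2 in experiment 1, and the other starts lay above them. The gene bodies had 1.86 (1.53 to 2.25), 1.06 (0.918 to 1.23) and 1.70 (1.46 to 1.97), against 1.07, 1.11 and 1.18 over all genes. Summed as 1 set, the bodies lay above the nuclear mean in the dual pools, and in the single pool the interval includes it. Fgf21 is too short to have a body part, and Cpt1a supplied 60433 of the 164271 bp. Singly, the body intervals of Acadl and Ehhadh in experiment 1 include the nuclear mean. In experiment 3 those of Cpt2, Acadm, Acadl and Pdk4 include it. The other body intervals in the dual pools lay above it. The stretches around the gene ends had 2.68, 0.816 and 1.75, and their intervals hold the values of all genes (2.12, 1.18 and 1.62).

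**Figure D2:**
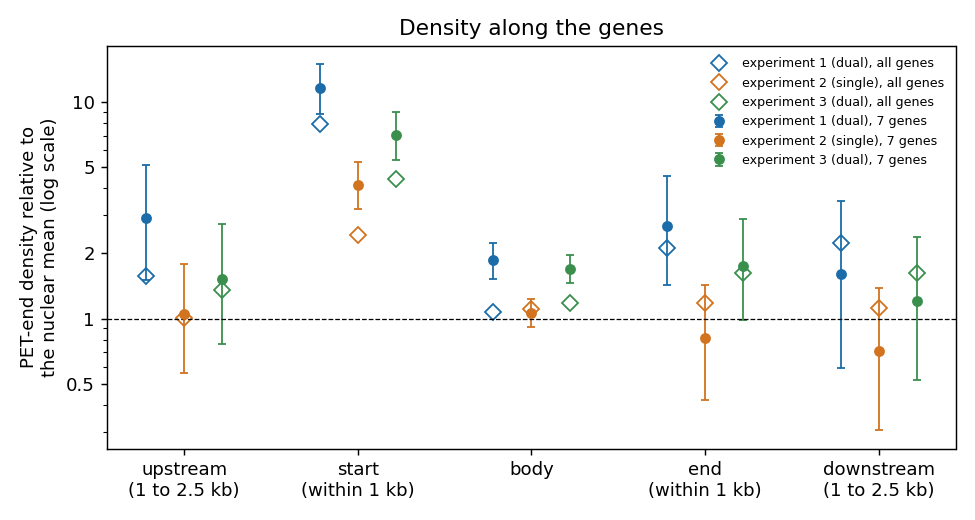
PET-end density relative to the nuclear mean (log scale) in 5 parts of the gene windows, for the 7 genes with a listed start as 1 set (filled points, 95% exact Poisson bars) and for the 14087 protein-coding genes with 1 listed start (open diamonds), by experiment. As a set, the starts of the 7 genes stand at 11.6, 4.16 and 7.03, above the other parts of the set, and above the diamonds in each experiment.

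Cpt1a had the densest start in experiments 1 and 3, and Cpt2 in experiment 2. Within 1 kb of the Cpt1a start lay 22, 17 and 19 ends, for relative densities of 30.8 (19.3 to 46.7), 7.86 (4.58 to 12.6) and 15.1 (9.08 to 23.6), at the 95.6th, 96.3rd and 96.5th percentile of starts. Cpt1a thus held a similar place in all 3 experiments. The Cpt2 start held 4, 18 and 12 ends, for 5.61 (1.53 to 14.4), 8.32 (4.93 to 13.2) and 9.52 (4.92 to 16.6). In contrast to its whole window, the Cpt2 start was not highest in experiment 1, although the intervals overlap. The Acadm start held 17, 7 and 6 ends, for 23.8 (13.9 to 38.2), 3.24 (1.30 to 6.67) and 4.76 (1.75 to 10.4), so that experiment 1 stood above both others, as over the whole gene.

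Acadl, with 6, 8 and 8 ends at its start, and Ehhadh, with 6, 8 and 7, had relative densities between 3.70 and 8.41 there. These lay above the Cpt2 start in experiment 1 and above the Acadm start in experiments 2 and 3. The intervals overlap in each case and the counts differ by few ends, so this order is not resolved. Pdk4 had 1, 4 and 6 and Fgf21 2, 1 and 4, and at these 2 genes the intervals include the median of all starts (2.80, 1.39 and 2.38) in each experiment. In 1 kb bins the densest bin was the first kilobase after the listed start for 5 members: Cpt1a (48 ends over the 3 experiments), Cpt2 (21), Acadm (24), Acadl (13) and Ehhadh (14), while the median bin of these genes held 2 or 3. At Cpt2 the 21 ends were 1, 11 and 9 by experiment. The Pdk4 ends were spread, with a densest bin of 8 ends at 8 to 9 kb.

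Angptl4 had no listed start and stands outside these counts, but its ends were also crowded in one place. Of its 119 ends, 45 (24, 13 and 8) lay in the bin 6 to 7 kb above the lower-coordinate boundary, which spans the upper boundary of the gene. The upper 2226 bp of the gene, next to that boundary, held 27, 21 and 11 ends, for relative densities of 34.0 (22.4 to 49.5), 8.73 (5.40 to 13.3) and 7.85 (3.92 to 14.0). The lower 2225 bp held 5, 1 and 8 ends, and the counts of these 2 stretches were closest in experiment 3.

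**Figure D3:**
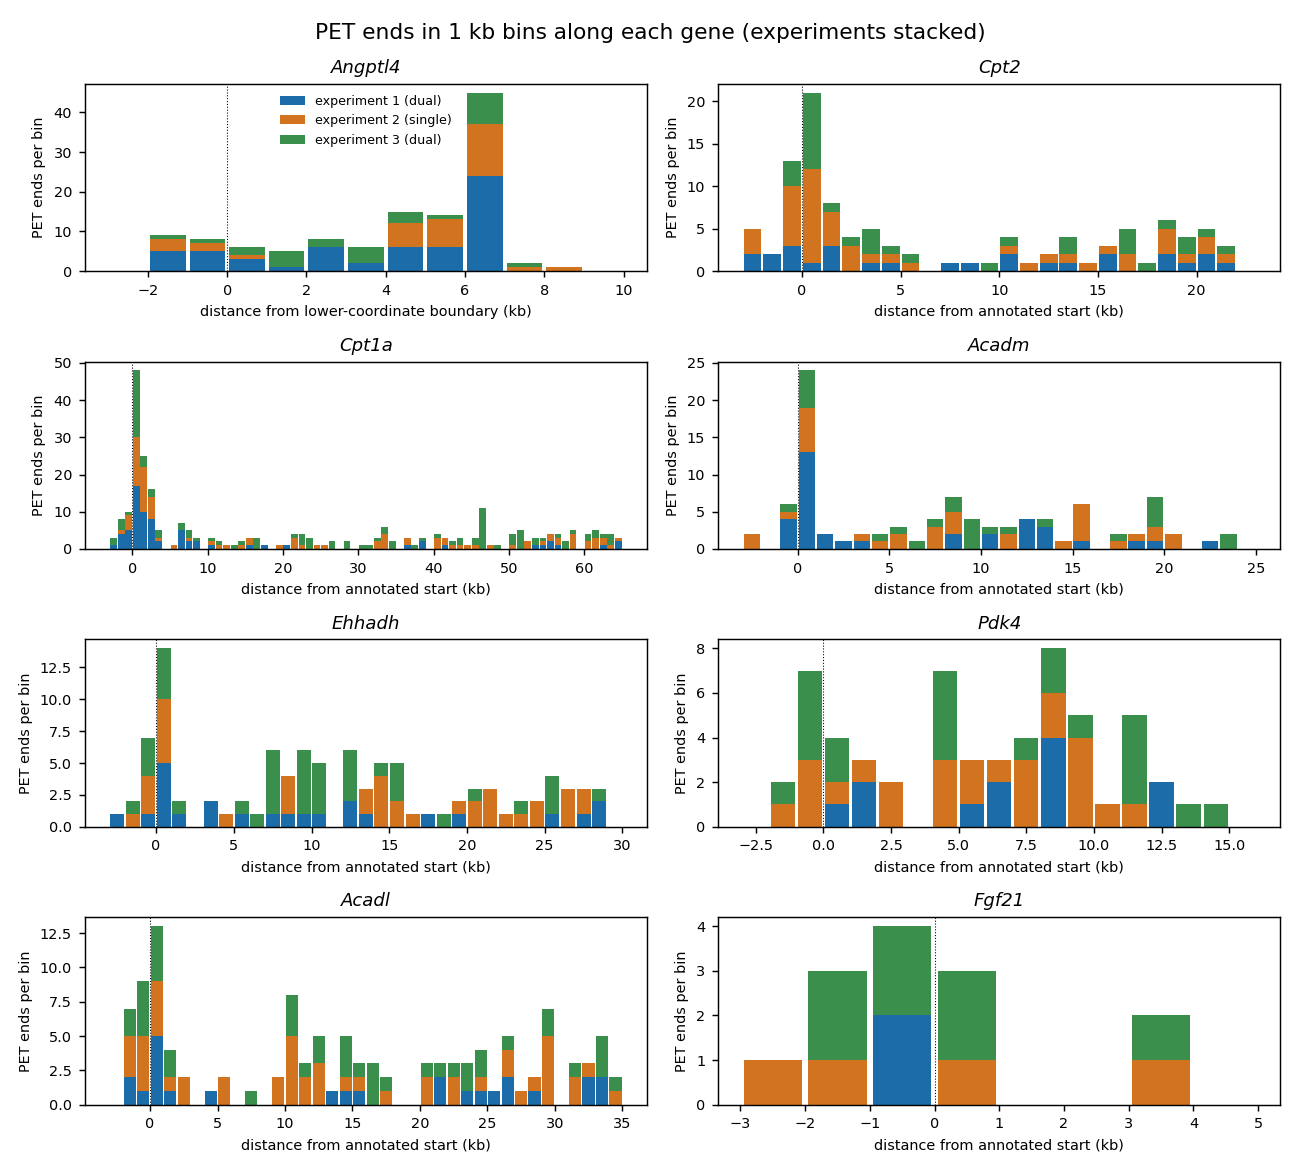
PET ends in 1 kb bins along each of the 8 genes with 2.5 kb to either side (the outermost bins are partly covered), experiments stacked, by distance in kb from the annotated start or, for Angptl4, from the lower-coordinate boundary. The first bin of Cpt1a holds 48 ends and that of Acadm 24, the Angptl4 bin at 6 to 7 kb holds 45, and Fgf21 never exceeds 4.

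Most PETs over these genes paired them with another chromosome, and most of the rest joined ends less than 8 kb apart. Of 772 PETs with an end in a member window, the share between chromosomes was 74.9% (68.5 to 80.6), 87.1% (82.8 to 90.7) and 80.8% (75.6 to 85.4). The intervals hold the shares of all nuclear PETs, 73.1%, 88.7% and 80.2%. PETs within 8 kb made up 21.8%, 8.14% and 12.4%, against 22.5%, 6.23% and 14.8% of all nuclear PETs, and the intervals hold these too. Their median distance was 354.5 bp, 476 bp and 270 bp.

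Partner ends on other chromosomes lay over a protein-coding gene window in 48.1% (40.1 to 56.2), 46.3% (40.1 to 52.6) and 46.1% (39.3 to 53.0) of cases, against 51.7%, 47.8% and 53.1% of all such ends. The share of all such ends lay within the interval in experiments 1 and 2 and just above it in experiment 3. None of the 630 partner ends lay over another of the 8 genes, a count of 0 that allows up to 3. Of the same ends, 1 lay over the 45 other genes of the pathway described below and 1 over a hepatocyte marker. The counts to expect from random joining were not computed, so nothing is concluded from these numbers.

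Of the 39 PETs joining a member to a place over 8 kb away on its chromosome, 35 spanned more than 1 Mb (median 44.1 Mb). Only 4 joined a member to a place between 8 kb and 1 Mb away, and these touched 3 of the 8 genes, against 24.5% of all protein-coding genes. The rate was 4.58 per 1000 ends (1.25 to 11.7), and the interval holds the rate of all genes, 2.62. Cpt1a, Cpt2, Acadl, Fgf21 and Pdk4 had none, and a count of 0 allows up to 3, which is 1.30% of the PETs of Cpt1a and 5.77% of those of Pdk4.

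Acadm was the only member with 2 such PETs, and both led to Rabggtb, its nearest protein-coding gene, which encodes the beta subunit of the Rab prenylating enzyme (chr3:153907289-153912966). In experiment 2 a PET joined position 153928986 within Acadm to 153913120, 15.9 kb away and 154 bp from a listed start of Rabggtb. In experiment 3 another joined 153944541, 102 bp from the Acadm start, to 153911698 within Rabggtb, 32.8 kb away and 731 bp from its nearest listed start. The 2 far ends lay 1422 bp apart. The kilobase around the first far end was dense in all 3 experiments, with 13, 15 and 14 ends (relative density 36.4, 13.9 and 22.2). Around the second it was 3, 4 and 2 ends (8.41, 3.70 and 3.17), and Rabggtb as a whole stood at 8.41, 3.12 and 5.35. Experiment 1, in which Acadm itself was densest, held no such PET.

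The other contacts were 1 PET each in experiment 1. Angptl4 was joined from 33774140, below its lower boundary, to 33746644, 27.5 kb away within Rab11b, a gene of a vesicle traffic GTPase with relative densities of 3.29, 0.804 and 1.93. Ehhadh was joined from 21787587, 247 bp from its start, to 21818520, 30.9 kb away and outside any protein-coding gene. The nearest gene there, the kinase gene Map3k13, was 5.54 kb further on and had relative densities of 0.760, 1.12 and 1.49. Each of the 4 contacts is a single PET, and none was weighed against random ligation.

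The 8 genes were set beside 45 other genes of fatty acid oxidation and fasting. Of these, 31, 7 and 24 were at or above 2 in experiments 1, 2 and 3, against 27.0%, 6.03% and 24.1% of all genes. In all 3 experiments 7 reached it, against 5.02% of all genes. The medians of the 45 were 3.27, 1.28 and 2.35. By the mean over the experiments, the highest was Fabp1, the fatty acid binding protein of hepatocytes, at 79.5, 7.01 and 15.3. Next came Acaa1b, a peroxisomal thiolase, at 19.0, 2.44 and 9.04, and Creb3l3, a transcription factor of the fasted liver, at 17.9, 2.32 and 5.28. The lowest by that mean were the omega-hydroxylase gene Cyp4a10 (0.689, 0.318 and 0.390), the fatty acid transporter gene Cd36 (0.675, 1.07 and 0.948) and the acyl-CoA thioesterase gene Acot2 (1.02, 0.672 and 1.01). Cyp4a10, Acaa1b and Acot2 have near-identical relatives, and the treatment of tags with several matches is not stated in the labels.

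The members have 14 listed paralogs, of which 9, 1 and 9 were at or above 2, against 27.0%, 6.03% and 24.1% of all genes. The paralogs had medians of 3.14, 1.32 and 2.31. Among the angiopoietin-like genes, Angptl8 exceeded Angptl4 by far, at 68.1 (58.1 to 79.3), 9.06 (7.02 to 11.5) and 20.4 (16.4 to 25.2), although its window overlaps Dock6. Of the paralogs named, those other than Pdk1, Pdk3, Fgf15 and Fgf23 have windows that overlap another protein-coding gene, as do Acaa1b and Creb3l3, and ends in the overlaps count for both genes. Angptl6 stood at 7.38, 1.43 and 4.47. The kinases of pyruvate dehydrogenase ran from Pdk2 (9.62, 1.89 and 4.58) through Pdk1 (4.17, 1.27 and 2.27) to Pdk3 (0.696, 0.791 and 0.569), with Pdk4 between the last 2 by its mean over the experiments. Pdk3 lies on chromosome X and the others on autosomes, and density was not adjusted for copy number. The intervals of Pdk2 lay above those of Pdk4 in the dual pools.

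Among the acyl-CoA dehydrogenases, Acadvl, the very-long-chain enzyme, had 7.66, 1.81 and 3.72, a higher mean than the members Acadm and Acadl. Acads had 2.80, 0.988 and 2.37, with a mean between those of the 2 members, and Acadsb had 1.73, 1.28 and 1.33, with a mean below both. Hadha, the trifunctional protein subunit that resembles Ehhadh, stood at 2.97, 1.35 and 2.35. Acadvl, Acads and Hadha belong to the list of other genes too and are counted in both lists. Of the carnitine palmitoyltransferases, the muscle form Cpt1b had 3.30, 1.41 and 2.75, and the brain form Cpt1c 0.918, 1.17 and 1.63. The endocrine relatives of Fgf21, Fgf15 and Fgf23, had 0.893, 1.37 and 2.02 and 1.17, 1.29 and 0.883, and their intervals overlapped those of Fgf21 in each experiment.

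**Figure D4:**
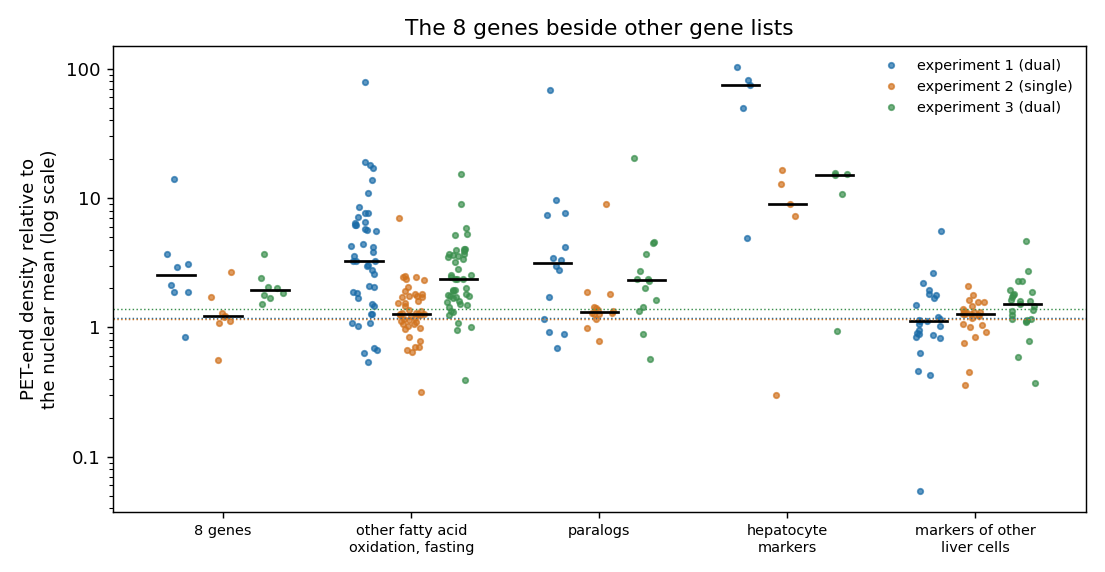
PET-end density relative to the nuclear mean (log scale) for the 8 genes, 45 other genes of fatty acid oxidation and fasting, 14 paralogs, 5 hepatocyte markers and 25 markers of other liver cells; each point is a gene in an experiment, black lines are medians and dotted lines the medians of all protein-coding genes. The medians of the 8 genes, 2.54, 1.22 and 1.94, lie below those of the other genes of the pathway (3.27, 1.28 and 2.35).

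The genes whose pattern over the 3 experiments was most like that of Angptl4, by Euclidean distance of log2(relative density + 0.1), were Cyp2f2 (distance 0.0902, with 13.6, 2.57 and 3.82), Cfb (0.117, with 13.1, 2.57 and 3.56) and Mepce (0.120, with 13.5, 2.74 and 3.40). Likeness over 3 pools is a description of these values only.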

How the data were processed

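Pol II ChIA-PET was measured in 8 mouse liver libraries. The deposited table, with 1 row per PET and no header, holds chromosome positions of both ends, which the authors obtained from their reads. Bowtie2 and mm10 are named per the submitters' processing notes. No version, read filter or treatment of duplicates is given in the sources used. The distance column was used only as a check, and 0 columns of per-sample values were left unused.

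PETs with a mitochondrial end were set aside. Ends were counted over each gene of RefSeq (GRCm38.p6, the same build) with a flank of 2.5 kb, per experiment, and divided by the nuclear mean. Short PETs were those within 8 kb and contacts those up to 1 Mb. The count over all genes supplied every background share, with a fold of 2 and a start zone of 1 kb. Ratios carry exact conditional binomial intervals, and percentiles of ratios use genes with at least 10 ends in both experiments together. RefSeq spans came without exons or introns, which were not used here.

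The genes named were all members, genes in their windows or at far ends of contacts, the 3 highest and lowest of the other list, all paralogs and the 3 genes nearest to the highest member (pseudocount 0.1). The values of 1 paralog are not reported here. Members and lists were chosen with earlier results of these data known. Python 3.11.15, numpy 2.4.6, pandas 2.3.3, scipy 1.17.1 and matplotlib 3.10.9 were used, and the counting was tested on simulated data. Alternatives changed the flank, duplicate collapse within 10 bp, PET class, linker, reference level, fold, start zone and contact distance.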

Additional observations from a re-analysis of the deposited data

How the results depend on the processing

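Of 336 alternative values over 40 results, 282 stayed within the main interval or within 1.5 times the main count, 51 moved beyond them, and 3 relative densities called at or above 2 fell below 1. These 3 were Ehhadh in experiment 1 from PETs at most 8 kb apart (0.789) and, against local windows, Cpt2 in experiments 1 and 3 (0.853 and 0.857). In all, 15 member values changed sides of 1. The number of the 8 genes at or above 2 times the nuclear mean (5, 1 and 4) became 0 in experiment 2 and 2 in experiment 3 with a flank of 5 kb. It became 4 in experiment 2 from PETs at most 8 kb apart, 2 in experiment 2 from one read-1 linker (ATGT) and 2 in experiment 3 from the other (TAAG). Relative to the median gene it was 1 in experiment 3. A fold of 1.5 gave 2 in experiment 2 and 8 in experiment 3, and a fold of 3 gave 3, 0 and 1. The shares of all genes given above hold for the main setting alone. None is given for these alternative counts, so they cannot be read as an excess or a lack among the 8 genes. The share of ends near a start was 16.7%, 13.3% and 17.7% within 500 bp, 43.3% and 38.1% in experiments 1 and 2 from PETs at most 8 kb apart, and 22.1% in experiment 1 from PETs between chromosomes. Without experiment 1, 2 contacts were left of 4. The causes of these moves were not tested. Angptl4 ranged over 11 alternatives from 7.73 to 25.6, 1.89 to 7.63 and 2.29 to 9.21, under 2 once, in experiment 2 with a flank of 5 kb. Cpt1a fell to 1.90 in experiment 1 from linker ATGT alone. The local windows and a nuclear mean without the 5 densest bins were chosen after seeing the data. No paired analysis was possible because the table names no library, and for the same reason no replicate could be left out. Counts of 2 to 7 ends, as at Fgf21, limit what can be told apart.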
